A study of Mus musculus with 8 samples.

Results

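The MCM helicase family was followed through tumour cells sorted by the activity of a replication gene's promoter. Its members were taken by name: Mcm2, Mcm3, Mcm4, Mcm5, Mcm6, Mcm7, Mcm8, Mcm9, Mcm10 and Mcmbp, with all probe sets that the array's annotation maps to these symbols. The rule uses no measured value, although the family was picked for study with earlier results of these data known. This gave 10 of the 18193 genes named on the array and 30 of its 45101 probe sets, from 1 probe set for Mcm8 to 5 for Mcm3. Of the 30, 24 reached a log2 signal above 5 on at least 2 arrays and were tested, and each of the 10 genes had at least 1 of them. The other 6 stayed at or below 4.87 on every array.

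Proteins of this family open the DNA double helix ahead of the replication fork. MCM2 to MCM7 form the ring-shaped core of the replicative helicase, which is loaded on origins in G1 phase and becomes active once CDC45 and the GINS complex bind it in S phase. MCM10 helps that activation and stays with the fork. MCM8 and MCM9 form a separate helicase that works in homologous recombination, and MCMBP binds MCM proteins and supports their assembly and release from chromatin.

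The cells were of 2 mouse lines, LLC (from a Lewis lung carcinoma) and colon26 (from a colon carcinoma), each stably carrying EGFP under the cloned mouse promoter of PSF1, the GINS subunit that Gins1 encodes. The labels do not say whether a line was 1 clone. Tumours grew under the skin of mice for 4 weeks (LLC) or 2 weeks (colon26), and the dissociated cells were sorted by FACS into EGFP-low and EGFP-high cells, so all 4 groups carry the reporter. Each group had 2 arrays, numbered 1 and 2 and labelled as biological replicates. Whether they came from separate mice is not said, so each p-value measures only how these arrays scatter, which may be technical.

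Values are the deposited log2 RMA signals of Affymetrix arrays, whose medians lay between 4.76 and 5.02. The low and high array of a line and number were treated as a pair, because arrays of different number stood apart. Control probe sets at the 3′ end of their transcripts exceeded those at the 5′ end, in the median, by a log2 of 2.41 to 2.70 on the arrays numbered 1 and by −0.01 to 0.35 on those numbered 2. Gins1 rose by 1.28 in LLC and 1.07 in colon26 (limma adjusted p = 0.0033 and 0.017), in the direction of the sort. Within the pairs, high minus low of the 3′ to 5′ measure was 0.22 and −0.15 in LLC and −0.18 and 0.11 in colon26. A gene rose or fell where limma, fitted over 12177 genes with the pair as a block, gave an adjusted p under 0.05. The brightest probe set on average stands for each gene, and a change is the log2 signal of EGFP-high cells less that of EGFP-low cells.

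Markers of other cell types differed between the sorts. The summed signal of 17 macrophage markers was at 11.41 and 11.53 (log2) in LLC low cells against 9.89 and 10.02 in LLC high cells, and at 12.85 and 13.55 against 10.63 and 11.20 in colon26. That of 10 fibroblast markers was at 14.97 and 15.55 against 13.32 and 13.40 in LLC, and at 15.28 and 15.58 against 15.03 and 15.09 in colon26. As a mean of the lines 14 of 16 tested macrophage and 10 of 10 fibroblast markers fell in limma, with 5 of 9 endothelial, 2 of 2 neutrophil and 0 of 2 T cell markers, against 5.57% of all genes. The lines differed in this. Fibroblast markers fell for 9 of 10 in LLC (median −2.53) and 4 of 10 in colon26 (median −0.52). Macrophage markers fell for 11 and 15 of 16, and endothelial markers for 0 and 3 of 9. Of all genes 6.04% fell in LLC and 1.58% in colon26. The part of these differences in the changes below was not tested, and in such bulk samples fewer expressing cells and less RNA per cell cannot be told apart. Of 8 epithelial markers, Krt8, Epcam and Cdx2 were above a log2 of 5 on every array, whereas 3 of the 8, among them Cdh1, never passed 5. The lines differed: Krt8 averaged 12.4 and 12.67 in LLC low and high cells but 5.66 and 5.36 in colon26. Krt18 averaged 8.5 and 9.05 against 4.44 and 3.98, and Krt20 3.88 and 3.75 against 11.75 and 12.04. Cdx2 stayed at 5.08 to 5.62. As a mean of the lines 0 of 5 tested epithelial markers rose and 0 fell. Of 3 lung epithelial markers, Nkx2-1 and Sftpc reached at most 4.88 and 4.89, and Sftpb lay between 5.14 and 5.82.

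The 6 genes of the replicative ring rose together as a mean of the lines. Mcm2 to Mcm7 were all higher in EGFP-high cells, by 0.52 to 1.01 (1.43-fold for Mcm6 to 2.01-fold for Mcm3), and each was higher in 4 of 4 pairs. Of all genes tested 56.3% had a positive change as a mean of the lines. The share of all genes higher in 4 of 4 pairs was not counted. Mcm8 and Mcm10 rose as well, whereas Mcmbp and Mcm9 did not pass the test. Thus 8 of the 10 members rose and 0 fell in limma, against 7.47% of all genes tested that rose and 5.57% that fell. The median change was 0.78 over the members and 0.038 over all 12177 genes.

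The promoters of genes that rose together are shown first, as RefSeq gives them for the mouse assembly GRCm38.p6, from 250 bases before to 50 after an annotated start site. The table matched 9 of the 10 members, Mcm4 being the exception, and gave Mcm7 a second start. Capitals mark letters bound by E2F factors, which switch on S phase genes (TTTCGCGC, TTTGGCGC, TTTCCCGC or TTTGCCGC), and the CCAAT box (CCAAT), on either strand; matches may overlap, as in Mcm5 and Mcm6, where 2 E2F matches share 4 bases. The windows of 4 ring genes are given, with that of Mcm8 and, for a member that did not pass, that of Mcm9. Not printed are those of Mcm2 and Mcm10, which rose without such E2F letters, and of Mcmbp, which held them and did not pass.
Mcm3, chr1:20820263-20820562, minus strand: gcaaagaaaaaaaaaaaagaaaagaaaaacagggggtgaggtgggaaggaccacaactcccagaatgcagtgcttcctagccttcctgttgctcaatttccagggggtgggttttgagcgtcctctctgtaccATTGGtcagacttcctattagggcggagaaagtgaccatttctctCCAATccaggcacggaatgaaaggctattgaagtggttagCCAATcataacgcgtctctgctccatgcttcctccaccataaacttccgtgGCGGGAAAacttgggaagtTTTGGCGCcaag
Mcm5, chr8:75109259-75109558, plus strand: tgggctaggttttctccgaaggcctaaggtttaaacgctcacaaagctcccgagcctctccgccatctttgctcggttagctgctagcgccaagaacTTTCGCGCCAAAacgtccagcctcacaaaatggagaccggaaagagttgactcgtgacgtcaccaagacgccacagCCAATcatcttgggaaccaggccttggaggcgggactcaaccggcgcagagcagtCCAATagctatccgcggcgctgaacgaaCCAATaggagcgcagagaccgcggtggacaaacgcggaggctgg
Mcm6, chr1:128359656-128359955, minus strand: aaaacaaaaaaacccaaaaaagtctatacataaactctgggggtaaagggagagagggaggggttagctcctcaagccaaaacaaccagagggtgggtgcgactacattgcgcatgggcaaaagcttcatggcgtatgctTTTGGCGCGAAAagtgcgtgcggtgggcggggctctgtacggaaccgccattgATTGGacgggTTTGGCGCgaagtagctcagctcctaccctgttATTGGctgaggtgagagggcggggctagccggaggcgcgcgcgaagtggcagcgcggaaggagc
Mcm7, chr5:138171834-138172133, minus strand: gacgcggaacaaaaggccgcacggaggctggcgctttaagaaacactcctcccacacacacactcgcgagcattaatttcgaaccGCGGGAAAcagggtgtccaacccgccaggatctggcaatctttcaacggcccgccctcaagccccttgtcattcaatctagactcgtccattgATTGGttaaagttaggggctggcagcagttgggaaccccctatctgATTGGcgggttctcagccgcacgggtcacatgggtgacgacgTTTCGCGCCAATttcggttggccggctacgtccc
Mcm8, chr2:132815891-132816190, plus strand: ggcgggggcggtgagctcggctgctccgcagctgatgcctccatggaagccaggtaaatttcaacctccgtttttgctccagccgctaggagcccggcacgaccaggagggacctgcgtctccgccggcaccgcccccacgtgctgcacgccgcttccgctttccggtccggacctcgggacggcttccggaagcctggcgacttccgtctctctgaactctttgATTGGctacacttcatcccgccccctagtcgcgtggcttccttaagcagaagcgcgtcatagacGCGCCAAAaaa
Mcm9, chr10:53629908-53630207, minus strand: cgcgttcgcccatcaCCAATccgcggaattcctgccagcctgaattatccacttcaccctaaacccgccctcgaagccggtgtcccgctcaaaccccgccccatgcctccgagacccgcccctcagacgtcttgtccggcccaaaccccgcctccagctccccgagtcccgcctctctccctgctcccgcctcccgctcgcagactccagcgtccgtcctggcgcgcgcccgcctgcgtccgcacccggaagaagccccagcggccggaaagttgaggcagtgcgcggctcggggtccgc

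E2F letters lay in the windows of Mcm3, Mcm5, Mcm6, Mcm7, Mcm8 and Mcmbp, 6 of the 9 matched members, and in 2.26% of all 32851 promoter windows of this length. CCAAT lay in those of 8 of the 9, all but Mcmbp, and in 37.4% of all windows. Mcm6 had 3 E2F matches, at −110 to −103, −106 to −99 and −47 to −40 from the start site. Mcm5 had 2, at −153 to −146 and −149 to −142. In Mcm3 both E2F matches lay past the start site, at 20 to 27 and 39 to 46. The windows of Mcm2, Mcm9 and Mcm10 held no E2F letters of these 4 spellings. Mcm2 and Mcm10 rose, and Mcm9 did not pass. Mcmbp held 1 match, at −25 to −18, and did not pass either. The Mcm10 window ends in TTTGGCG, which is TTTGGCGC without its last letter, so a match across this edge could not be seen. A match describes the letters in the windows only, and binding was not measured.

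**Figure D1:**
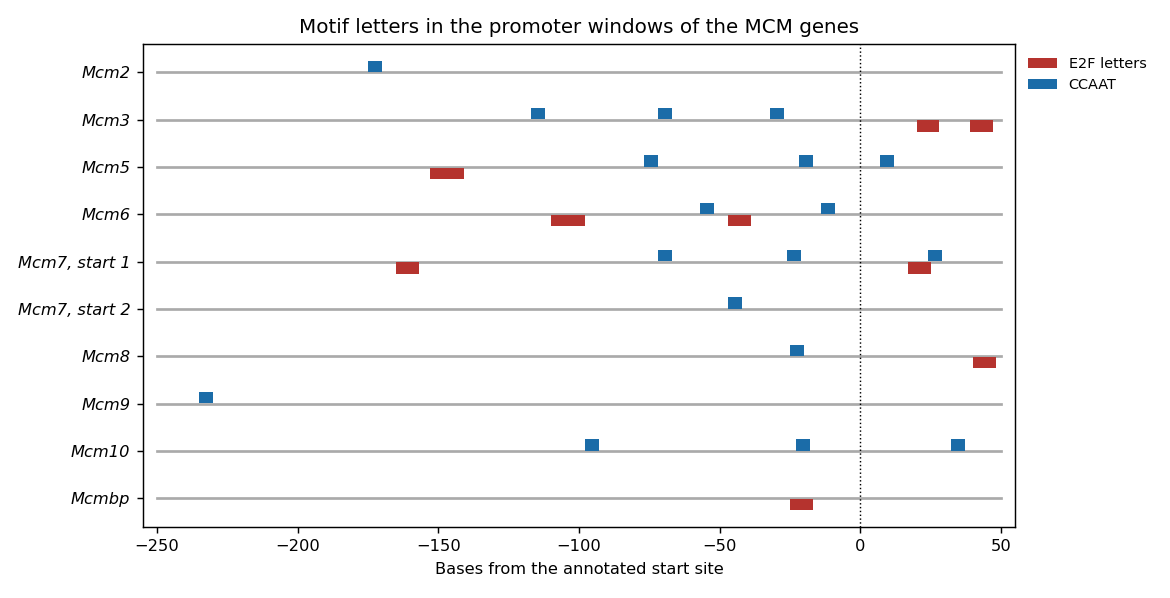
Position of E2F letters (red) and CCAAT (blue) in the promoter windows of 9 MCM genes, in bases from the annotated start site (dotted line), with 1 line per window and 2 for Mcm7. Red marks stand in 6 of the 10 windows shown and blue marks in 9.

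Mcm2 and Mcm5, whose proteins sit side by side in the ring, had low and high arrays that stood apart in both lines. Mcm2 (probe set 1434079_s_at), a ring subunit that the firing kinase CDC7 phosphorylates, had log2 signals of 9.95 and 9.59 in LLC low cells (arrays 1 and 2) and of 10.75 and 10.41 in LLC high cells. For colon26 the low cells had 9.92 and 9.59, the high cells 10.36 and 10.34. In neither line did the low and high arrays overlap. How many of all genes tested lacked overlap was not counted, so overlap is given here and below only to describe the values. Mcm2 rose by 0.81 in LLC (SE 0.18, limma adjusted p = 0.018), whereas its change of 0.59 in colon26 did not pass (SE 0.18, limma adjusted p = 0.12).

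Mcm5 (1436808_x_at), part of the gate through which the ring closes around DNA, was at 9.82 and 9.78 in LLC low and 10.77 and 10.94 in LLC high cells. In colon26 it was at 9.87 and 9.28 in low and 10.32 and 10.58 in high cells. Again no low array reached a high array of its line. Mcm5 rose by 1.05 in LLC (SE 0.22, limma adjusted p = 0.013) and was 0.87 higher in colon26 without passing (SE 0.22, limma adjusted p = 0.064).

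Mcm3 and Mcm7 changed as much, but their low and high arrays overlapped in LLC for Mcm3, where only the pairs separate the groups. Mcm3 (1420028_s_at), a subunit next to MCM5 in the ring, was at 7.87 and 8.82 in LLC low and 8.72 and 10.07 in LLC high cells. For colon26 the values were 8.26 and 8.40 in the low and 8.86 and 9.72 in the high sort. The LLC low array numbered 2 lay above the LLC high array numbered 1. Mcm3 rose in both lines, by 1.05 in LLC (SE 0.22, limma adjusted p = 0.012) and by 0.97 in colon26 (SE 0.22, limma adjusted p = 0.035), and was the only ring gene to pass in colon26. With a block shared by the lines it passed in neither (limma adjusted p = 0.058 and 0.16). The colon26 call also ended with no filter (0.077), after quantile normalization (0.14), with the mean of all probe sets (0.087) and with probe sets tested singly (0.067).

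Mcm7 (1438320_s_at), a ring subunit that is marked by ubiquitin when the helicase is unloaded, was at 11.13 and 10.41 in LLC low and 11.94 and 11.55 in LLC high cells. In colon26 it was at 11.21 and 10.56 in low and 11.58 and 11.64 in high cells. Each high array lay above each low array of its line. Mcm7 rose by 0.97 in LLC (SE 0.21, limma adjusted p = 0.016), and its change of 0.73 in colon26 did not pass (SE 0.21, limma adjusted p = 0.11).

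Mcm4 and Mcm6 had the smallest changes among the ring genes in LLC and as a mean of the lines. In colon26 the change of Mcm2 (0.59) was below that of Mcm4 (0.63). Mcm4 (1416214_at) stood at 10.48 and 10.03 (LLC low) against 10.96 and 10.73 (LLC high), and at 10.74 and 9.95 (colon26 low) against 11.09 and 10.86 (colon26 high). Mcm6 (1416251_at) stood at 10.50 and 10.74 (LLC low) against 10.90 and 11.30 (LLC high), and at 9.95 and 9.74 (colon26 low) against 10.22 and 10.57 (colon26 high). High arrays stood above low ones in either line for both genes, by a narrow margin in several cases. Neither gene passed in a single line: the changes in LLC were 0.59 and 0.48 (limma adjusted p = 0.088 and 0.16) and in colon26 0.63 and 0.55 (limma adjusted p = 0.14 and 0.19). As a mean of the lines Mcm4 rose by 0.61 (SE 0.14, limma adjusted p = 0.018) and Mcm6 by 0.52 (SE 0.14, limma adjusted p = 0.036). The Mcm6 call ended after quantile normalization (0.44, limma adjusted p = 0.051), with no filter on signal (0.057), with probe sets tested singly (0.053) and with a block shared by the lines (0.064). It also ended without the LLC pair numbered 1 (0.12) or 2 (0.26) and without the colon26 pair numbered 2 (0.16).

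**Figure D2:**
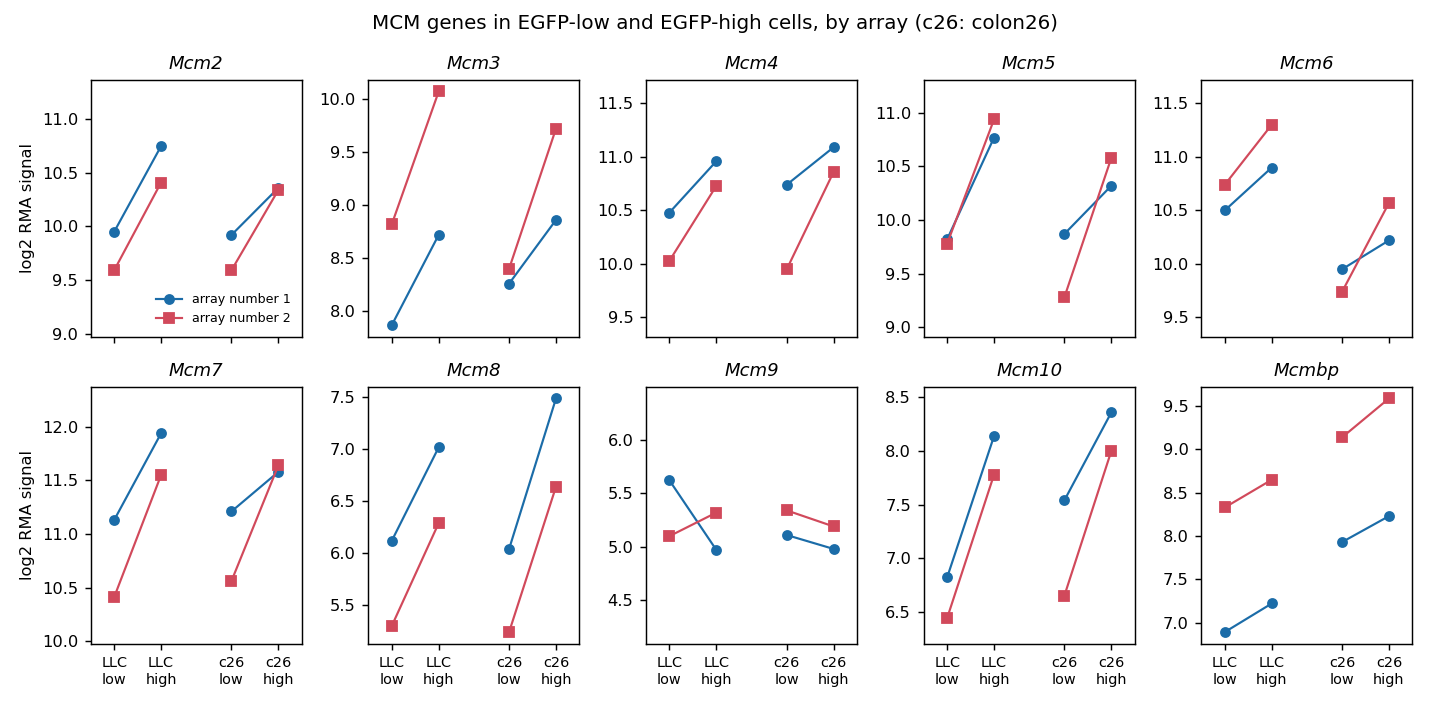
Deposited log2 RMA signal of the 10 MCM genes in EGFP-low and EGFP-high cells of LLC and colon26 (c26), the brightest probe set standing for each gene. Points are single arrays, lines join the low and high array of a line and number, and every vertical axis spans at least 2.4 log2 units; all lines of Mcm2 to Mcm8, Mcm10 and Mcmbp slope up, whereas 3 of the 4 Mcm9 lines slope down.

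Mcm10 and Mcm8, the members outside the ring that rose, had the smallest p-values of the family. Mcm10 (1433408_a_at), the activation factor, stood at 6.82 and 6.44 (LLC low) against 8.14 and 7.78 (LLC high), and at 7.54 and 6.65 (colon26 low) against 8.36 and 8.0 (colon26 high). Its low and high arrays did not overlap in either line. Mcm10 rose by 1.33 in LLC (SE 0.19, limma adjusted p = 0.0020), by 1.08 in colon26 (SE 0.19, limma adjusted p = 0.011) and by 1.21, or 2.31-fold, as their mean (SE 0.14, limma adjusted p = 2.9e-04). With the mean of all 3 Mcm10 probe sets, of which 2 never passed the filter, LLC gave 0.73, colon26 gave 0.56 and their mean was 0.65, and the colon26 call ended (limma adjusted p = 0.12). It ended after quantile normalization too (0.91, limma adjusted p = 0.057).

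Mcm8 (1429557_at) stood at 6.12 and 5.30 (LLC low) against 7.02 and 6.29 (LLC high), and at 6.04 and 5.24 (colon26 low) against 7.49 and 6.64 (colon26 high). All 4 high arrays lay above all 4 low arrays, the nearest being 6.29 and 6.12. Mcm8 rose by 0.94 in LLC (SE 0.18, limma adjusted p = 0.0072), by 1.42 in colon26 (SE 0.18, limma adjusted p = 0.0017) and by 1.18, or 2.27-fold, as their mean (SE 0.12, limma adjusted p = 1.9e-04). Its pair changes of 1.45 and 1.40 in colon26 were above those of 0.89 and 0.99 in LLC. The difference between the lines, −0.48 for Mcm8, did not pass (95% interval −1.03 to 0.07, limma adjusted p = 0.41).

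Mcm9, whose protein pairs with MCM8, did not pass the test. It stood at 5.62 and 5.10 (LLC low) against 4.97 and 5.32 (LLC high), and at 5.11 and 5.34 (colon26 low) against 4.98 and 5.19 (colon26 high) (1455117_at). These values lie within 0.65 of each other, near the filter of 5, and the low and high arrays overlapped in both lines. The change was −0.18 as a mean of the lines (SE 0.16, limma adjusted p = 0.52) and turned to 0.04 without the LLC pair numbered 1. The 3 other Mcm9 probe sets stayed at or below 3.95 on every array, so a change of Mcm9 cannot be read well at this signal. The difference between the changes of Mcm8 and Mcm9 was not tested.

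Mcmbp (1424348_at) stood at 6.89 and 8.33 (LLC low) against 7.22 and 8.65 (LLC high), and at 7.93 and 9.14 (colon26 low) against 8.23 and 9.59 (colon26 high). Low and high arrays overlapped in both lines, and the arrays numbered 2 were above those numbered 1 by more than high was above low. The pair changes were close together, from 0.30 to 0.44, and their mean of 0.35 did not pass (SE 0.12, limma adjusted p = 0.10). Its 2 other tested probe sets had changes of −0.02 and 0.00.

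**Figure D3:**
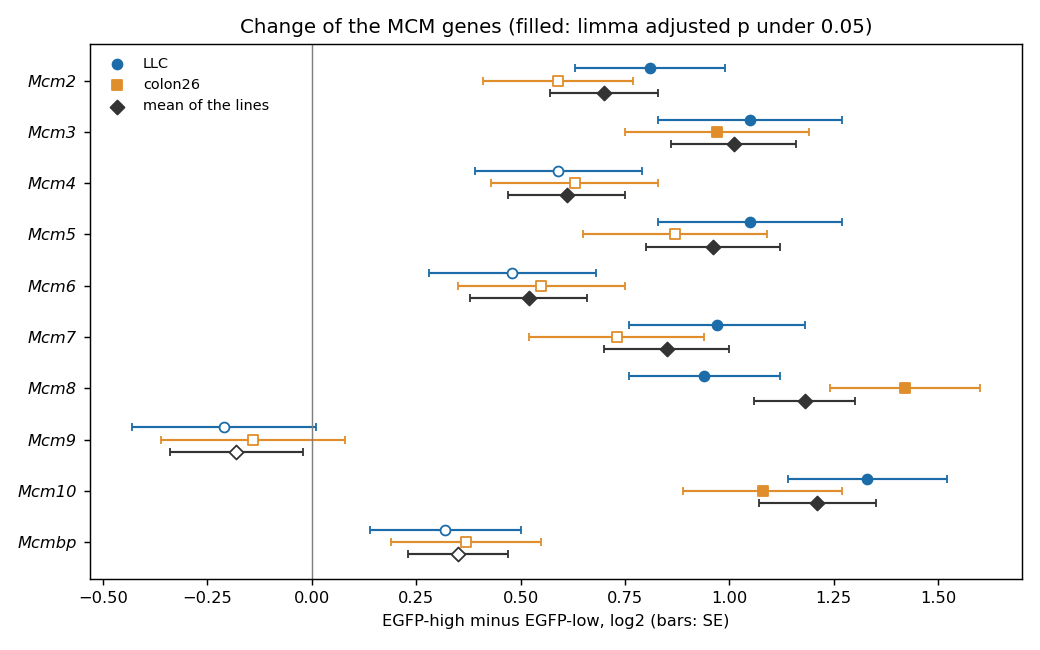
Change of each MCM gene between EGFP-high and EGFP-low cells on the log2 scale per line and averaged over the lines, with SE bars from limma with the pair as a block; filled symbols have an adjusted p under 0.05. Filled symbols number 6 in LLC, 3 in colon26 and 8 for the mean.

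In LLC alone 6 of 10 members rose, namely Mcm2, Mcm3, Mcm5, Mcm7, Mcm8 and Mcm10, against 4.98% of all genes (6.04% fell). In colon26 alone Mcm3, Mcm8 and Mcm10 rose, 3 of 10, against 2.18% of all genes (1.58% fell). The median change of the members was 0.87 in LLC and 0.68 in colon26, where those of all genes were 0.039 and 0.085. None of the 10 passed the test of a difference between the lines, a count of 0 in limma, against 0.427% of genes with a larger and 0.985% with a smaller change in LLC. At an unadjusted p under 0.05 the count was also 0 of 10, where 1731 of the 12177 genes passed. The intervals of these 10 differences were wide, reaching from −1.03 to 0.91 at their ends, about as far as the changes themselves.

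The calls rested on particular pairs and on the block. Without the LLC pair numbered 2, 1 of 10 members rose in LLC (Mcm10), where 183 of all 12177 genes rose against 607 with it. Leaving out the colon26 pair numbered 1, or that numbered 2, 0 rose in colon26, in a fit whose spread came from LLC, with 116 and 0 of all genes higher against 266. Without the LLC pair numbered 1, the LLC calls of Mcm2 and Mcm8 ended, with 278 genes higher. Without the colon26 pair numbered 2, Mcm8 and Mcm10 alone rose as a mean of the lines, 2 of 10, while the ring genes were at adjusted p = 0.051 to 0.16 and 240 of all genes rose against 910. Without the block 0 members passed limma in either line or averaged over them, at adjusted p = 0.15 to 0.57 for the 8 that rose with it as the mean. Of all 12177 genes 0 rose in any of these 3 contrasts without the block (794, 438 and 982 genes were at an unadjusted p under 0.05), so that loss is not particular to the members. After quantile normalization 1 of 10 rose in colon26 and after median centring 5 of 10. In all genes the deposited split of 266 higher and 193 lower became 43 and 109, and 539 and 232, under the same 2 scalings.

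The size of the change varied from pair to pair in the same way for most of the ring. In the first colon26 pair Mcm2 to Mcm7 were 0.27 to 0.61 higher in high cells, in the second 0.75 to 1.33. The LLC pairs gave 0.40 to 0.94 and 0.56 to 1.25. Over the 18 tested probe sets of the ring genes the medians were 0.74 and 1.06 for LLC against 0.46 and 1.10 for colon26, and the first colon26 pair was the lowest of the 4 for 14 of the 18. Gins1, whose promoter drove the reporter, changed by 1.19 and 1.37 in LLC and by 0.73 and 1.41 in colon26, with its lowest value in the same pair. This is not particular to the ring. The medians of the loading, firing and fork genes named below were also lowest there (0.29, 0.48 and 0.42), while that of unloading genes was highest (0.34). The median of all genes was 0.05 and 0.03 in LLC and 0.02 and 0.18 in colon26.

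All 18 tested probe sets of Mcm2 to Mcm7 were higher in high cells in 4 of 4 pairs. These are repeated readings of the ring genes on the same arrays. The share of all probe sets higher in 4 of 4 pairs was not counted. Tested as units of their own over 25626 probe sets, 16 of the 24 tested member probe sets rose as a mean of the lines, 14 in LLC and 3 in colon26, against 4.92%, 3.37% and 1.13% of all probe sets. None of the 24 fell, against 4.38%, 6.07% and 0.874%, and 0 passed for a difference between the lines, against 0.195% higher and 0.46% lower. Probe sets of 1 gene differed in places. The Mcm5 probe set 1415945_at rose by 1.28 in LLC and 1.10 in colon26 (limma adjusted p = 0.0080 and 0.038), while 1459658_at, at 4.41 to 6.34 over the 8 arrays, rose by 0.52 as the mean (limma adjusted p = 0.041). For Mcm3, 4 of 5 probe sets rose by 0.80 to 1.03 as a mean of the lines, and 1420029_at was 0.21 higher without passing (limma adjusted p = 0.36). All 4 Mcm7 probe sets rose, by 0.84 to 1.04. The suffix x_at, for probes that may read other transcripts, is also carried by the probe set used for Mcm5 and by 1449705_x_at of Mcm3 and 1439269_x_at of Mcm7, which rose. Those of Mcm4 and Mcm6 were 0.59 and 0.66 higher and missed the threshold (limma adjusted p = 0.054 and 0.059). Other suffixes occur too: s_at for the probe sets used for Mcm2, Mcm3 and Mcm7, and a_at for that of Mcm10. Whether any of these read other transcripts was not tested.

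The difference between the arrays numbered 1 and 2 turned sign between probe sets of the same gene. Mcm7 probe set 1416030_a_at was 1.95 higher on the arrays numbered 2 and 1439269_x_at 0.64 lower (limma adjusted p = 1.1e-04 and 0.0076). Mcm3 probe set 1426653_at was 2.61 higher and 1420029_at 0.43 lower (limma adjusted p = 1.4e-04 and 0.025). Mcmbp probe sets ran from 1.36 higher to 1.64 lower (limma adjusted p = 1.4e-04 each). Of the 24, 7 were higher and 8 lower on the arrays numbered 2, against 25.4% and 26.6% of all probe sets. At the level of genes Mcm3 and Mcmbp were higher and Mcm4, Mcm8 and Mcm10 lower, 2 and 3 of 10 (3 in all without either LLC pair, where Mcm3 and Mcm4 did not pass), against 26% and 24.4% of all genes. The high minus low change of the Mcm7 probe sets stayed between 0.84 and 1.04 across this range, but other genes varied more. For Mcmbp it was 0.35 at a number difference of 1.36, and −0.02 and 0.00 at −1.09 and −1.64. For Mcm3, 1420029_at changed by 0.21 at −0.43, less than its other probe sets. Mcm5 probe set 1459658_at changed by 0.52 at −0.56, against 1.19 for 1415945_at at 1.01. The 3′ to 5′ control difference separated the arrays numbered 1 and 2, and its part in these differences was not tested.

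**Figure D4:**
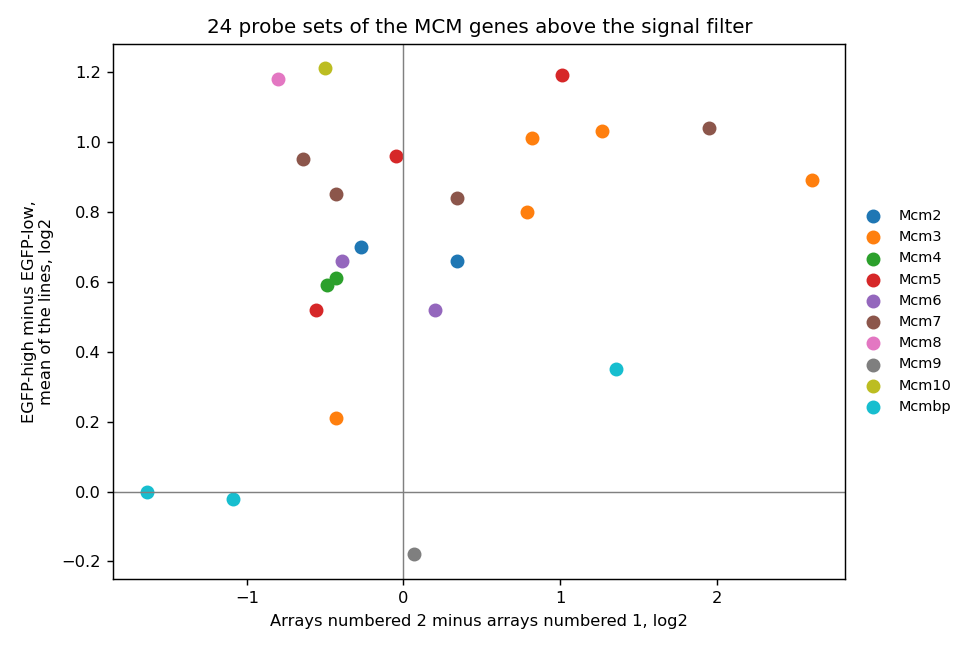
The 24 tested MCM probe sets, coloured by gene, with the difference between the arrays numbered 2 and 1 on the horizontal axis and the EGFP-high minus EGFP-low change as a mean of the lines on the vertical axis, both in log2. Probe sets of Mcm7 spread from −0.64 to 1.95 along the horizontal axis but from 0.84 to 1.04 along the vertical. Those of Mcmbp lie at 0.35 on the vertical axis where the horizontal value is 1.36, and at −0.02 and 0.00 where it is −1.09 and −1.64.

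Between the lines 8 of the 10 members did not pass in either sort. With the array number as a block, Mcm6 was higher in LLC than in colon26, by 0.77 in low and 0.70 in high cells (limma adjusted p = 0.014 and 0.025). Mcmbp was lower in LLC, by 0.93 and 0.98 (limma adjusted p = 0.0028 and 0.0024). Thus 1 of 10 members was higher and 1 lower in each sort, against 21% and 25.2% of all genes in low cells and 15.7% and 23.5% in high cells, which are no smaller than the family's shares. After median centring 3190 genes were higher and 2090 lower in low cells, against 2556 and 3065 as deposited, and in high cells 2181 and 2144 against 1907 and 2866. From lowest to highest, Mcm6 went from colon26 low (9.84 ± 0.15) through colon26 high (10.40 ± 0.25) and LLC low (10.62 ± 0.17) to LLC high (11.10 ± 0.28; SD, n = 2 each), and colon26 high and LLC low differed by less than their spread. Mcm2, Mcm3, Mcm4, Mcm5, Mcm7, Mcm8 and Mcm10 had both low group means below both high group means, with the low groups of LLC and colon26 within their spread of each other.

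The line differences of Mcmbp depended on the probe set. 1438254_at was 0.70 higher in LLC low cells without passing (limma adjusted p = 0.066), against 0.93 lower for 1424348_at, and the mean of the 3 probe sets gave 0.02. For Mcm6, 1438852_x_at agreed in sign, 1.41 higher in LLC low cells (limma adjusted p = 0.014). The dim 1447756_x_at, not tested, averaged 3.14 in LLC and 3.90 in colon26 low cells, and with the mean of all 3 probe sets Mcm6 did not pass in low (0.48, limma adjusted p = 0.067) or high cells (0.38, limma adjusted p = 0.14). Without the LLC pair numbered 2, Mcm6 did not pass in low (0.69, limma adjusted p = 0.12) or high cells (0.54, limma adjusted p = 0.26), nor in low cells without the colon26 pair numbered 2 (0.51, limma adjusted p = 0.078). Of the 24 member probe sets 4 were higher and 2 lower in LLC low cells, against 21.5% and 20.3% of all probe sets, and 3 higher and 2 lower in LLC high cells, against 13.9% and 19.1%. Mcm3 probe set 1420029_at was 1.5 and 1.41 higher in LLC low and high cells (limma adjusted p = 9.9e-04 and 0.0014), and 1449705_x_at was 0.70 higher in LLC high cells (limma adjusted p = 0.045) and 0.57 higher in low cells without passing (limma adjusted p = 0.071). The Mcm3 probe set used for the gene was 0.02 and 0.10 higher without passing, and Mcm5 probe set 1459658_at was 1.03 and 0.64 lower (limma adjusted p = 0.0048 and 0.033).

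Most genes of the helicase's partners rose too. All 5 genes of the active complex outside the ring rose as a mean of the lines, with a median of 0.72. Gins1 rose by 1.17, the helicase activator Cdc45 by 1.05, Gins3 by 0.72, Gins2 by 0.65 and Gins4 by 0.54. Gins1 is counted among the 5 although its promoter drove the sort, so its own rise is not evidence about the other partners. Of 9 genes of origin recognition and MCM loading 6 rose and 0 fell (median 0.68). The smallest p-values were those of Gmnn, the inhibitor of loading (1.12), the recognition subunit Orc1 (0.87) and Orc6 (0.80). The loaders Cdc6 and Cdt1 rose by 1.09 and 0.63, and Orc3, Orc4 and Orc5 did not pass, at 0.12, −0.03 and 0.39.

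Among 8 genes of origin firing 7 rose (median 0.80), with the CDC7 activator Dbf4 at 1.46, and Ticrr and Mtbp, whose proteins act together at firing origins, at 1.06 and 0.81. Of 11 fork genes 10 rose (median 0.75), led by p by the polymerase subunit Pole (1.29), the checkpoint mediator Clspn (1.16) and Wdhd1 (0.87), which links helicase and polymerase alpha. Of 5 genes of helicase unloading the ubiquitin ligase genes Traip (1.44) and Lrr1 (1.89) rose, while Vcp, the segregase that extracts the ring, was at 0.10. The 3 analysed recombination genes related to MCM8 and MCM9 all rose: Brca2 (0.97), Rpa3 (0.64) and Hrob (0.81), whose protein loads MCM8 and MCM9. Of 8 E2F genes the repressors E2f7 (1.47) and E2f8 (1.22) rose, and the activator E2f1 was at 0.40 without passing (limma adjusted p = 0.092). In single lines fewer passed. In LLC 4 of 5 partners of the active complex, Gins1 among them, 4 of 9 loading, 5 of 8 firing and 5 of 11 fork genes rose. The counts in colon26 were 1, 1, 3 and 3, and the 1 partner was Gins1 itself (limma adjusted p = 0.017). The counts as a mean of the lines are to be read against 7.47% of all genes that rose and a median of 0.038.

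Mitosis genes had larger changes than the helicase in these pairs. All 11 analysed rose as a mean of the lines (median 1.78), with Kif11 at 2.06, Cdk1 at 1.76 and Ube2c at 2.10. Their median was 1.65 and 2.21 for LLC and 1.14 and 2.34 for colon26, where that of Mcm2 to Mcm7 was 0.80 and 0.97, and 0.41 and 0.99. The helicase median was therefore the lower in 4 of 4 pairs, a difference given here without a test.

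**Figure D5:**
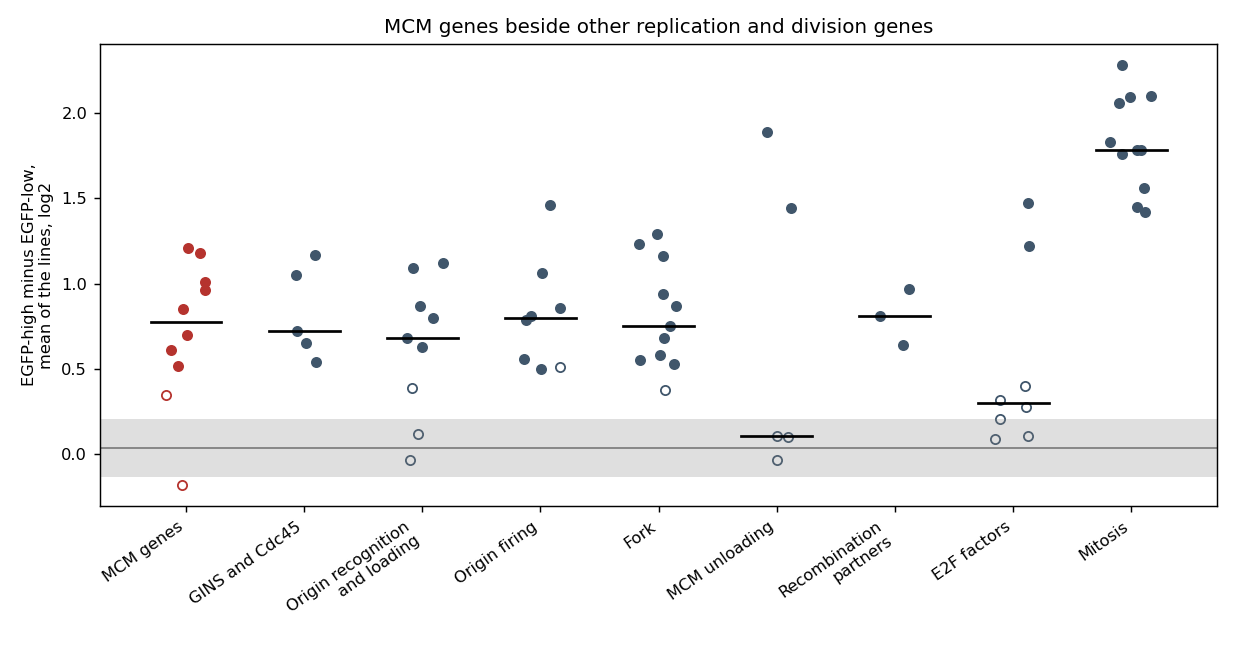
EGFP-high minus EGFP-low change (log2, mean of the lines) of the MCM genes (red) and of genes in 8 other lists, 1 point a gene; filled points have a limma adjusted p under 0.05, black bars are list medians, and the grey line and band are the median and middle range (quartiles) of all 12177 genes. The MCM median of 0.78 lies near those of loading, firing, fork, helicase partner and recombination genes (0.68 to 0.81) and below the 1.78 of mitosis.

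Outside these lists, the genes whose 4 pair changes lay closest to the median of Mcm2 to Mcm7 (0.80, 0.97, 0.41 and 0.99) were Bub3, Nup205, Syne3, Phgdh and Kcnk2. Closeness was the root mean square difference over the 4 pairs, which was 0.046 for Bub3, 0.053 for Nup205, 0.068 for Syne3, 0.069 for Phgdh and 0.070 for Kcnk2. Bub3, for instance, changed by 0.79 and 1.05 in LLC and by 0.45 and 0.97 in colon26. Among the members this distance was smallest for Mcm7 (0.095) and Mcm2 (0.147) and largest for Mcm9 (1.035).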

How the data were processed

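RMA is the method that the submitters' processing notes name for these 1-colour Affymetrix arrays, with no version or options, and the authors deposited log2 signals. Of 45101 probe sets 64 were controls, and 34945 had a single gene symbol, 9160 none and 932 more than that; symbols followed RefSeq through Entrez numbers (34741 matched). Where colon26 samples are described as LLC, their titles and cell line fields, which say colon26, were followed.

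Genes with a log2 signal above 5 on 2 arrays were tested in limma 3.58.1 (under R 4.3.3), its variances moderated across genes and p-values adjusted by Benjamini-Hochberg. High minus low contrasts had the line and number pair as a block, leaving 2 residual and 8.25 prior degrees of freedom. Deviations from group means of low and high arrays of a number correlated at 0.887 in LLC and 0.838 in colon26 across genes. Those of the low arrays of a number also correlated between the lines, at 0.74. The correlations within a line therefore do not show that a low and a high array came from the same tumour. The numbers are the labels' replicate numbers. Contrasts between lines and between numbers had the number as a block (3 residual degrees of freedom). Alternatives were other filters, scalings, moderation, probe set rules and blocks, and leaving out each pair. In 10 simulations of 12177 genes with 200 changed by a log2 of 1, 90.0% were recovered in LLC, 90.5% in colon26 and 99.7% over both, with 6.44%, 5.85% and 6.20% false calls. The simulated noise was independent between genes. Recovery at a log2 below 1, where Mcm2 to Mcm7 lay in colon26 (0.55 to 0.97), was not tested.

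The members, lists, contrasts and tests were chosen with earlier results of these data known. Outside the members, genes named were Gins1, up to 3 of each list by smallest p as a mean of the lines, and the 5 closest in pair changes; others, and single probe sets, were named after their values were seen. Some listed genes are not reported here. The number of arrays limits the precision. Figures used matplotlib 3.10.9 in Python 3.11.15.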

Additional observations from a re-analysis of the deposited data

How the results depend on the processing

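Over 13 alternatives, the 8 members that rose as a mean of the lines stayed higher in EGFP-high cells in each. Most alternatives could not have shown otherwise. Other filters, moderation or blocks leave the change of a probe set as it is. Every pair change of these genes was positive, so leaving out a pair could not turn the sign. Without the replicate block, members called were 0 in either line and 0 as the mean, and 0 between the lines in low and in high cells; member probe sets called were 0 in each of these except 1 between the lines in low cells. All genes higher and lower were then 0 and 0 in LLC (794 at an unadjusted p under 0.05), 0 and 3 in colon26, 0 and 7 as the mean, and 0 and 0 for the difference between lines. A replicate block shared by the lines gave 381 and 421 genes in LLC, 103 and 101 in colon26, 425 lower as the mean, 4 and 8 for the difference, and 4 (LLC) and 1 (colon26) member probe sets.

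Quantile normalization gave 1 member, 1 member probe set and 43 and 109 genes in colon26, and 2 and 2 genes for the difference. Median centring gave 5 members, 9 member probe sets and 539 higher genes in colon26, and 90 and 284 genes for the difference. Trend with robust moderation gave 7 members and 9 member probe sets in colon26. Of all genes 373 then rose there, against 266 in the main fit. This moderation gave 246 lower genes for the difference. No filter gave 9 member probe sets in LLC, 1 in colon26 and 8 between lines in high cells. Of 18193 genes 448 then rose in LLC and 164 in colon26, and 2025 were higher and 4575 lower in LLC than colon26 high cells. For the difference the counts were 22 and 34. A filter of 7 gave 7 member probe sets in colon26, 3 between lines in high cells and 211 lower genes for the difference. Of the 8400 genes it left, 372 rose in colon26, and 1451 were higher and 2131 lower in LLC than colon26 high cells. Only the arrays of a line gave 5 member probe sets in LLC and 9 in colon26, with 449 and 310 of all genes higher. Counts over all probe sets under these alternatives are not given, so gene counts stand beside those of member probe sets. Every probe set as its own unit, with more units tested, gave 1555 lower in LLC and 1122 as the mean. The mean of all probe sets gave 1 member between lines in low cells, where 2380 of 11339 genes were higher and 2951 lower in LLC. It turned Mcmbp to 0.00 in LLC, to 0.02 between lines in low cells and to −0.46 between numbers. Where no cause is named, the cause was not tested.

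Leaving out a pair gave 1 to 6 members in LLC, 0 to 4 with colon26, 2 to 8 as the mean, 1 to 2 between lines in low and in high cells, and 3 to 4 between numbers. Member probe sets ran from 1 to 9, 0 to 9 and 2 to 14, and from 2 to 6 between lines in high cells. Higher genes ran from 183 to 449 in LLC, 0 to 310 in colon26, 240 to 758 as the mean and 0 to 48 for the difference, and lower genes from 213 to 494, 59 to 242, 269 to 498 and 0 to 128. Without the LLC pair numbered 1, Mcm9 turned to 0.23 in LLC and 0.04 as the mean; without the pair numbered 2 it was at −0.65 and −0.40. Leaving out a pair also leaves 1 residual degree of freedom. Of 507 single gene values under alternatives 418 kept direction and call, 71 lost a call, 13 gained one and 5 turned sign. These values include members with no call to lose and fits that coincide. For a change in 1 line, using only the arrays of that line equals leaving out either pair of the other line. The values that kept direction and call are therefore not independent checks. Mcm9 lies near the filter, which limits its reading.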
